A study of Homo sapiens with 24 samples.

Results

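The genes described here are 48 regulators of pre-mRNA splicing, chosen by name: 13 SR proteins, 19 heterogeneous nuclear ribonucleoproteins (hnRNPs), the 3 polypyrimidine tract binding (PTB) proteins, 6 kinases that phosphorylate SR proteins, 3 proteins that recognise the 3′ splice site, and 4 other regulators. Each symbol was looked up by its Ensembl identifier, and 48 of 48 were found among the 58676 identifiers measured. RNA came from HSJD-DIPG-007, an established diffuse midline glioma (DMG) cell line with the genotype H3F3A K27M, ACVR1 R206H and PIK3CA MIS, so each library carried those 3 alleles and came from 1 cell line. The cells were grown as spheroids and received either vehicle or LLY-283, an inhibitor that occupies the SAM pocket of the arginine methyltransferase PRMT5, at its GI40 from the day after seeding, with medium and agent renewed after 5 days. Of the 24 libraries, 12 came from each arm: 3 from day 0, 3 from day 5, 2 from day 7 and a single one from day 1, day 2, day 3 and day 10. The study's legend calls the libraries of a group and day technical repeats, so the p-values here measure the spread between such repeats and need not cover that between independent cultures.

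SR proteins carry a domain of arginine and serine repeats and mostly promote the use of exons whose enhancers they bind, whereas many hnRNPs bind silencers or introns and oppose it. SRPK kinases phosphorylate SR proteins in the cytoplasm and CLK kinases do so in the nucleus, which sets where SR proteins reside and how active they are. PRMT5 places symmetric dimethylation on arginines of Sm proteins and of several RNA-binding proteins, and many splicing regulators control the level of their own RNA through isoforms that are degraded.

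Library totals lay between 13835205 and 23190369 estimated counts, with a median of 18688160.5, and the 48 genes together took 1.76% to 2.09% of the counts of a library. Levels are given as CPM, counts scaled to the total of a library, after TMM normalization over the 24 libraries. Whether groups overlap was judged on this scale, whereas each test used factors of its own libraries. For the 48 genes at day 5, the log2 ratio of the CPM means less the tested log2 fold change had a median of -0.025. Narrow gaps between groups can therefore depend on the scale. The lowest count of any of the genes in any library was 174, for U2AF1. At day 7, both libraries labelled repeat 2 lay toward the opposite treatment group. Whether their labels were exchanged was not tested, and each result that uses day 7 by label, the fit of 22 libraries included, depends on those labels. Sample numbers 1 to 12 in the labels cover days 5 to 10 and sample numbers 37 to 48 cover days 0 to 3, so a difference between day 5 and day 0 and one between those number ranges cannot be told apart. Among markers of other cell types, the endothelial list summed to between 4.47 and 25.5 CPM. The microglia and leukocyte list summed to between 0.56 and 2.54 CPM. The fibroblast list was highest in vehicle repeat 3 of day 5, at 384 CPM against 220 and 229 CPM in repeats 1 and 2. Without that vehicle library, 28 regulators were called at day 5, and the share of all genes called in that fit is not given here. The same list summed with LLY-283 to 302 to 303 CPM at day 5, 305 CPM at day 2 and 379 CPM at day 10. Within the list, POSTN stood at 80.6, 73.9 and 68.6 CPM with LLY-283 at day 5, against 20.2, 20.8 and 29.4 CPM with vehicle. At day 10 POSTN stood at 145.7 CPM with LLY-283 and 49.4 CPM with vehicle. A different pattern was that of COL1A1 and FN1, at 53.8 and 60.4 CPM in vehicle repeat 3 of day 5. They stood at 31.5 and 26.02 CPM in LLY-283 day 2 and at 31.2 and 29.975 CPM in vehicle repeat 1 of day 7. In every other library they were at or below 10.7 and 8.19 CPM. Their part in the results of days 2 and 7 was not tested. The glioma and oligodendrocyte precursor list summed to between 4238 and 5761 CPM across the 24 libraries. Most of this sum came from NES, at 1904 to 2825 CPM, and VIM, at 1161 to 2163 CPM. OLIG1, OLIG2, SOX2 and PDGFRA lay between 79.2 and 470 CPM. NKX2-2 lay between 15.6 and 26.8 CPM and SOX10 at or below 0.603 CPM.

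At day 5, 30 of the 48 regulators differed between LLY-283 and vehicle at an adjusted p under 0.01 (edgeR quasi-likelihood test with Benjamini-Hochberg adjustment over all genes), against 26.1% of all genes tested. Of these, 22 were lower with LLY-283 (45.8% of the 48), against 14.1% of all genes, and 8 were higher (16.7% of the 48), against 12% of all genes. The share that was higher thus lay near that of all genes. The lower genes included 12 hnRNPs and 5 SR proteins, led by SRSF1, HNRNPM and HNRNPAB, and the higher genes were led by the kinases CLK1, CLK4 and CLK2. The differences were small in size: the largest among the 30 was a log2 fold change of 0.39, and the median over the 48 genes was -0.11 against 0.02 over all genes tested. Within each of the 30, the 3 LLY-283 libraries did not overlap the 3 vehicle libraries. This was read from the same libraries as the test, so it is no separate evidence for the calls. Of all 48 genes, 37 had groups that did not overlap, against 46.3% of all genes tested, and 36 had an unadjusted p under 0.05, against 44.4%. The regulators were also more abundant than most genes. In vehicle repeat 1 of day 5 their mean log2 CPM was 8.03, against 2.76 over all genes that passed the filter across the 24 libraries. Smaller changes can be called at higher counts, and the part of abundance in these shares was not tested. In a fit shared by all 22 libraries of days 0 to 7, 19 regulators were called at day 5, 3 higher and 16 lower, and CLK4, PTBP2, RBM5, SRSF8 and HNRNPC were among those not called. The share of all genes called in that fit is not given here. Bulk counts cannot separate less RNA per cell from fewer cells with that RNA. A list of 8 proliferation genes moved in the same libraries, with 8 of 8 lower at a median log2 fold change of -0.29 and a summed level of 1781 to 1873 CPM with LLY-283 against 2273 to 2337 CPM with vehicle, while 5 housekeeping genes had 3 lower, 0 higher and a median of -0.21, with a summed level of 8394 to 8853 CPM against 10007 to 10533 CPM. A list of 6 neuron markers, of which 5 could be tested, had 2 higher (GAD1 and SYT1) and 0 lower at a median of 0.35, and summed to 157, 168 and 166 CPM with LLY-283 against 109.99, 114 and 112 CPM with vehicle. The other 4 neuron markers, STMN2, RBFOX3, SLC17A7 and SNAP25, had means under 2 CPM in both arms. Of the fibroblast list, 9 of 10 genes could be tested, with 3 higher and 0 lower at a median of -0.62. Of the glioma and oligodendrocyte precursor list, 7 of 8 could be tested, with 2 higher and 2 lower at a median of -0.02. The part of these lists in the result was not tested.

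**Figure D1:**
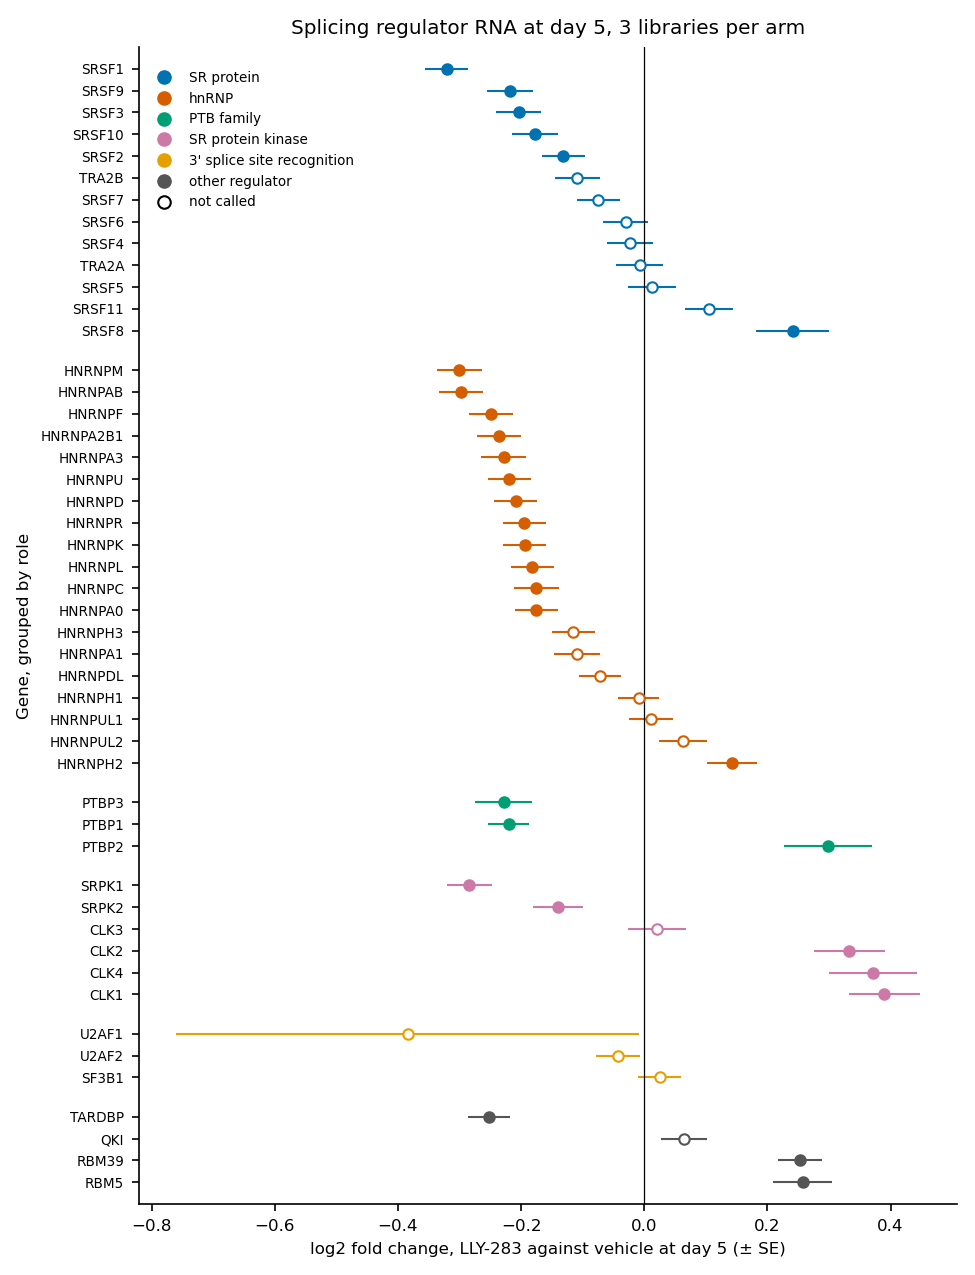
Log2 fold change of LLY-283 against vehicle at day 5 (x axis) for the 48 regulators (y axis, grouped by role and coloured by it), as points with bars of 1 standard error from the fit to 3 libraries per arm. Filled points are the 30 called genes; 12 of 19 hnRNPs and 5 of 13 SR proteins lie to the left of 0 as filled points, and CLK1, CLK4 and CLK2 lie farthest to the right.

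The bases upstream of 4 of the leading genes are shown because these genes moved in opposite directions, SRSF1 and HNRNPAB downward and CLK1 and CLK4 upward. They were read from RefSeq promoters of GRCh38.p14, which hold 43 of the 48 genes (RBM39, SRSF2, HNRNPA1, TRA2A and QKI are missing), and cut so that no annotated exon of the gene is included. Each is written 5′ to 3′ on the strand of its gene and ends before the RefSeq start. Capitals mark matches, on either strand, to 6 motifs: the CCAAT box (CCAAT), the SP1 box (GGGCGG), the E-box (CACGTG), a CRE core motif (TGACGT), an ETS motif (CCGGAAG) and the TATA box (TATAAA). The SRSF1 stretch is chr17:58007347-58007496 on the minus strand, the HNRNPAB stretch chr5:178204283-178204532 on the plus strand, the CLK1 stretch chr2:200864692-200864908 on the minus strand and the CLK4 stretch chr5:178627113-178627300 on the minus strand, which is intronic to longer annotated CLK4 transcripts.
SRSF1: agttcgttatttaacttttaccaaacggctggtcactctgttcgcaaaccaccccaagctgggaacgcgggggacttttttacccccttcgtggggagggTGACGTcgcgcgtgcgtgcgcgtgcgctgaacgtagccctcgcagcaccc
HNRNPAB: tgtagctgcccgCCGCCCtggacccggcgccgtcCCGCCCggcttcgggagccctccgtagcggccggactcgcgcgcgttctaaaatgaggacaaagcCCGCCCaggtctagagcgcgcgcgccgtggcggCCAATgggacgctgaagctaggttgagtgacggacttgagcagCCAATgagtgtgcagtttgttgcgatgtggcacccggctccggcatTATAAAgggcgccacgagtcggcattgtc
CLK1: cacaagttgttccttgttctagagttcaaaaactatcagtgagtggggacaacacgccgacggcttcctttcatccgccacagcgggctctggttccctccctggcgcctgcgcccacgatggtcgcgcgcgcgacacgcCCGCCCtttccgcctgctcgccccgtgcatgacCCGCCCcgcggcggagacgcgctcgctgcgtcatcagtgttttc
CLK4: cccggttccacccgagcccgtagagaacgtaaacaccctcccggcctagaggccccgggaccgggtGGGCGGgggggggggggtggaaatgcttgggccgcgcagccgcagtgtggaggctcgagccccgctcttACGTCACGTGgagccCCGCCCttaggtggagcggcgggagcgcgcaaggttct
The stretch of SRSF1 held 1 CRE core motif. That of HNRNPAB held 2 CCAAT boxes, 3 SP1 boxes and 1 TATA box. That of CLK1 held 2 SP1 boxes, and that of CLK4 held 2 SP1 boxes and a CRE core motif that overlaps an E-box.

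Over the 250 bases before the start, the CCAAT box was present in 17 of 43 promoters of the regulators (39.5%), against 34.5% of 15843 protein-coding promoters. By role it was present in 12 of 18 hnRNP promoters and 2 of 11 SR protein promoters. The SP1 box was present in 28 of 43 promoters of the regulators against 56% of protein-coding promoters, and the E-box in 9 of 43 against 7.84%. The CRE core motif was present in 7 of 43 against 8.67%, the ETS motif in 5 of 43 against 11.8% and the TATA box in 5 of 43 against 9.23%. The CCAAT box stood in 11 of 21 promoters of the regulators lower at day 5 and in 3 of 7 promoters of those higher. Promoters of the regulators had a median GC content of 65.2% and a median of 25 CpG dinucleotides, against 62.4% and 17 in protein-coding promoters.

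Among the SR proteins at day 5, SRSF1, SRSF9, SRSF3, SRSF10 and SRSF2 fell and SRSF8 rose. SRSF1 (chr17:58000919-58007346), the founding SR protein and an activator of exon inclusion, stood at 699.7, 664 and 687 CPM in the vehicle libraries. With LLY-283 it stood at 564, 525 and 526 CPM. Every LLY-283 library was below every vehicle library, and SRSF1 fell by 0.32 ± 0.04 on the log2 scale (SE, n = 3 per group, edgeR adjusted p = 3.7e-08). SRSF3, a small SR protein that also acts in mRNA export, stood at 591, 580.2 and 589 CPM with vehicle and at 533, 477 and 492 CPM with LLY-283. The groups were apart and the log2 fold change was -0.20 ± 0.04 (SE, n = 3 per group, edgeR adjusted p = 5.1e-05). SRSF9 fell by 0.22, SRSF10 by 0.18 and SRSF2 by 0.13 on the log2 scale.

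SRSF8, a gene related in sequence to SRSF2, stood at 31.6, 28.3 and 29.99 CPM with vehicle. With LLY-283 it stood at 35.7, 34.4 and 34.4 CPM. It rose by 0.24 ± 0.06 on the log2 scale (SE, n = 3 per group, edgeR adjusted p = 0.0021). The call was lost in DESeq2 and without vehicle repeat 2, where the log2 fold change was 0.19. The other 7 SR proteins did not pass the test: their log2 fold changes ran from -0.11 for TRA2B and -0.07 for SRSF7 to 0.11 for SRSF11, with SRSF4, SRSF5, SRSF6 and TRA2A between -0.03 and 0.01.

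Of the 19 hnRNPs, 12 were lower and 1 was higher at day 5, with a median log2 fold change of -0.18. HNRNPM (chr19:8444767-8489114), which binds GU-rich RNA, stood at 633, 608 and 584 CPM with vehicle. With LLY-283 it stood at 511, 471 and 475 CPM. The groups were separate, and HNRNPM fell by 0.30 ± 0.04 on the log2 scale (SE, n = 3 per group, edgeR adjusted p = 2.4e-07). HNRNPAB (chr5:178204533-178211163), related to HNRNPD, stood at 382, 357 and 360 CPM with vehicle and at 302, 293 and 284 CPM with LLY-283. Its lowest vehicle library lay above its highest LLY-283 library, and the log2 fold change was -0.30 ± 0.04 (SE, n = 3 per group, edgeR adjusted p = 1.8e-07).

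HNRNPF, which binds runs of guanines, stood at 326, 308 and 309 CPM with vehicle and at 268, 256 and 256 CPM with LLY-283, a log2 fold change of -0.25 ± 0.04 (SE, n = 3 per group, edgeR adjusted p = 2.3e-06). HNRNPA2B1, an abundant core hnRNP, stood at 2401, 2376 and 2339 CPM with vehicle and at 2087, 1940 and 1914 CPM with LLY-283, a log2 fold change of -0.24 ± 0.04 (SE, n = 3 per group, edgeR adjusted p = 6.4e-06). Both genes had separate groups. HNRNPC, a core hnRNP that binds uridine tracts, stood at 822, 791 and 795 CPM with vehicle and at 746, 678 and 672 CPM with LLY-283. The groups were again apart, with a log2 fold change of -0.18 ± 0.04 (SE, n = 3 per group, edgeR adjusted p = 3.5e-04). The other lower hnRNPs were HNRNPA3, HNRNPU, HNRNPD, HNRNPR, HNRNPK, HNRNPL and HNRNPA0, with log2 fold changes between -0.23 and -0.18.

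HNRNPH2, an X-linked relative of HNRNPF and HNRNPH1, was the 1 hnRNP that rose, from 135, 137 and 131 CPM with vehicle to 157, 142 and 139 CPM with LLY-283, a log2 fold change of 0.14. The nearest libraries of its groups, at 137 and 139 CPM, were close. Whether its call held under the alternatives is not given here. HNRNPH1 did not pass the test, with a log2 fold change of -0.01. HNRNPA1, the hnRNP of highest level per length here, stood at 2341, 2305 and 2220.3 CPM with vehicle and at 2219.9, 2035 and 2004 CPM with LLY-283. The nearest libraries of the groups were less than 1 CPM apart, and the log2 fold change of -0.11 ± 0.04 did not pass the threshold (SE, n = 3 per group, edgeR adjusted p = 0.023). It passed in DESeq2 and without LLY-283 repeat 1, where the log2 fold change was -0.16. HNRNPH3, HNRNPDL, HNRNPUL1 and HNRNPUL2 also did not pass, with values from -0.12 to 0.06. Part of the HNRNPUL2 sequence, 43.7% of its 31-mers, is shared with the read-through gene HNRNPUL2-BSCL2, and HNRNPA1 has 74 named copies whose counts came to 2.21% of its own, so counts of these genes could be split.

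The PTB family divided at day 5. PTBP1 (chr19:797075-812327), a repressor of exons in most non-neuronal cells, stood at 579, 572 and 587 CPM with vehicle and at 489.9, 481 and 495 CPM with LLY-283. PTBP2 (chr1:96721665-96823738), the paralogue known from neurons, stood at 18.3, 18.7 and 19.1 CPM with vehicle and at 23.6, 21.8 and 22.3 CPM with LLY-283. In both genes the groups were separate, in opposite directions. PTBP1 fell by 0.22 ± 0.03 on the log2 scale (SE, n = 3 per group, edgeR adjusted p = 7.2e-06) and PTBP2 rose by 0.30 ± 0.07 (SE, n = 3 per group, edgeR adjusted p = 0.0014). The PTBP2 call was lost in DESeq2 and without vehicle repeat 1, and the neuron marker list, through GAD1 and SYT1, was higher in the same LLY-283 libraries. PTBP3 fell by 0.23 on the log2 scale.

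Of the 6 kinases, CLK1, CLK2 and CLK4 were higher, SRPK1 and SRPK2 were lower and CLK3 did not pass the test. CLK1 (chr2:200853009-200864691) stood at 33.5, 33.9 and 34.7 CPM with vehicle. With LLY-283 it stood at 42.9, 41.9 and 46.4 CPM. The groups were well apart, and CLK1 rose by 0.39 ± 0.06 on the log2 scale (SE, n = 3 per group, edgeR adjusted p = 4.3e-06). CLK4 (chr5:178602664-178630615) stood at 17.5, 18.7 and 19.1 CPM with vehicle and at 23.7, 23.6 and 23.0 CPM with LLY-283, and CLK2 (chr1:155262868-155278491) stood at 71.4, 75.2 and 70.2 CPM with vehicle and at 81.3, 92.8 and 93.9 CPM with LLY-283. Neither gene's groups overlapped. The log2 fold change was 0.37 ± 0.07 for CLK4 (SE, n = 3 per group, edgeR adjusted p = 1.4e-04) and 0.33 ± 0.06 for CLK2 (SE, n = 3 per group, edgeR adjusted p = 1.7e-04).

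CLK3, the remaining member of that family, stood at 57.2, 59.2 and 56.3 CPM with vehicle and at 57.4, 57.6 and 57.1 CPM with LLY-283. Its groups overlapped, and its log2 fold change was 0.02 ± 0.05 (SE, n = 3 per group, edgeR adjusted p = 0.77). SRPK1 stood at 245, 245 and 237 CPM with vehicle and at 206, 193 and 188 CPM with LLY-283. It fell by 0.28 ± 0.04 on the log2 scale (SE, n = 3 per group, edgeR adjusted p = 5.1e-07), and SRPK2 fell by 0.14.

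None of the 3 genes for recognition of the 3′ splice site passed the edgeR test by its own row, and 0 of 3 had an unadjusted p under 0.05. SF3B1, which contacts the branch point as part of the U2 snRNP, stood at 469, 452 and 470.1 CPM with vehicle and at 481, 455 and 454 CPM with LLY-283, with a log2 fold change of 0.02 ± 0.03 (SE, n = 3 per group, edgeR adjusted p = 0.61). U2AF2, which binds the polypyrimidine tract, had a log2 fold change of -0.04. U2AF1, which binds the terminal AG, stood at 40.4, 25.8 and 16.5 CPM with vehicle and at 18.2, 24.5 and 20.2 CPM with LLY-283. Its vehicle libraries spanned the LLY-283 libraries, and the log2 fold change of -0.38 ± 0.38 did not pass (SE, n = 3 per group, edgeR adjusted p = 0.51). Without vehicle repeat 1 the log2 fold change was -0.01. The row for U2AF1 (chr21:43092956-43107570) held a mean of 443 counts per library, while ENSG00000275895, which shares 98.7% of its 31-mers with U2AF1, held 4438. With both rows summed, a reading added after seeing the data, the log2 fold change was -0.19 ± 0.03 (SE, n = 3 per group, edgeR adjusted p = 9.3e-05, against 0.51 for the row alone).

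Of the other regulators, RBM39 and RBM5 rose and TARDBP fell. RBM39 (chr20:35701347-35742312), a U2AF2-related coactivator of splicing, stood at 282, 299 and 302 CPM with vehicle. With LLY-283 it stood at 347, 347 and 339.7 CPM. The groups were apart, and the log2 fold change was 0.25 ± 0.04 (SE, n = 3 per group, edgeR adjusted p = 2.1e-06). RBM5, known for its effect on exons of apoptosis genes, stood at 98.99, 106 and 104 CPM with vehicle and at 113, 121 and 128 CPM with LLY-283, a log2 fold change of 0.26 ± 0.05 (SE, n = 3 per group, edgeR adjusted p = 2.1e-04). TARDBP, which represses cryptic exons, stood at 393, 408 and 394 CPM with vehicle and at 336, 332 and 318 CPM with LLY-283. Its groups were separate, and it fell by 0.25 ± 0.03 on the log2 scale (SE, n = 3 per group, edgeR adjusted p = 1.3e-06). QKI, a regulator of splicing in glia, stood at 409, 394 and 427 CPM with vehicle and at 443, 403 and 418 CPM with LLY-283. The groups overlapped, and its log2 fold change was 0.06 ± 0.04 (SE, n = 3 per group, edgeR adjusted p = 0.19).

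At day 0, none of the 48 regulators differed between the arms at an adjusted p under 0.01 in edgeR or in DESeq2, against 0.0169% of all genes in edgeR. At an unadjusted p under 0.05, 4 of 48 did so in edgeR, against 5.69% of all genes, namely SRSF5, TRA2A, HNRNPD and CLK1. SRSF1 at day 0 stood at 610, 620.01 and 638 CPM with vehicle and at 648, 633 and 632 CPM with LLY-283. HNRNPM stood at 594, 631 and 625 CPM with vehicle and at 639.9, 633 and 631 CPM with LLY-283. The day 0 groups of both genes overlapped, with the lowest value of each in vehicle repeat 1.

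Days 1, 2, 3 and 10 had 1 library per arm, so their differences have no replicate check. The hnRNPs had a median log2 difference (LLY-283 minus vehicle) of -0.05 on day 1, -0.03 on day 2 and -0.20 on day 3. The SR proteins had medians of 0.01, 0.03 and -0.14 on the same days. CLK1 differed by 0.07, 0.20 and 0.36 on the log2 scale at days 1, 2 and 3, and CLK4 by 0.09, 0.17 and 0.31. The differences of CLK1 on days 1 and 2 lay within those of its 3 day 0 pairs, which were 0.14, 0.31 and 0.01. The differences of CLK4 at day 0 were -0.20, 0.13 and 0.11. Of the 30 regulators called at day 5, 21 had the sign of their call on day 1, 26 on day 2 and 30 on day 3, against 67.8%, 81.1% and 91.5% of all 4304 genes called at day 5. In the 3 pairs of day 0, 5, 13 and 21 of the 30 had that sign, against 31.8%, 51.65% and 55.8% of the 4304 genes. The 21 of day 1 thus did not exceed the day 0 pairs.

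At day 3, SRSF1 stood at 676 CPM with vehicle and 569 CPM with LLY-283, HNRNPAB at 389 and 279.5 CPM, and CLK1 at 34.2 and 43.9 CPM. The proliferation list was also lower at day 3, with 8 of 8 genes and a median log2 difference of -0.30, and at days 1 and 2 its medians were -0.12 and -0.13.

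The number of regulators past a log2 difference of 0.2 in either direction describes the size of the differences in each pair of libraries, next to the share among the 20876 genes that passed the filter. At day 3, 17 of 48 regulators were lower by more than this (26.8% of all genes) and 3 were higher (29.2%). On day 1 it was 1 lower (16.7%) and 1 higher (21.9%), and on day 2 it was 2 lower (17.3%) and 4 higher (22.9%). In the 3 pairs of day 5, 11, 19 and 21 regulators were lower (24.7%, 26.6% and 27.4%) and 5, 6 and 6 were higher (30%, 29.4% and 32.5%). Day 3 and repeats 2 and 3 of day 5 thus held the most regulators on the lower side. The 11 of 48 in repeat 1 of day 5 lay near the share of all genes in that pair, so that count was not particular to the regulators. U2AF1, whose reads lie mostly on a near-identical copy, was 1 of the 11, at -1.15. In the 3 pairs of day 0 the numbers were 3, 0 and 0 lower (26.4%, 16.9% and 17.7%) and 3, 1 and 0 higher (16.3%, 17.1% and 16.9%). At day 7, repeat 1 had 10 lower (23.6%) and 6 higher (31%) and repeat 2 had 4 lower (26.6%) and 3 higher (25.9%). At day 10, 3 were lower (23.3%) and 7 were higher (25.2%).

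**Figure D2:**
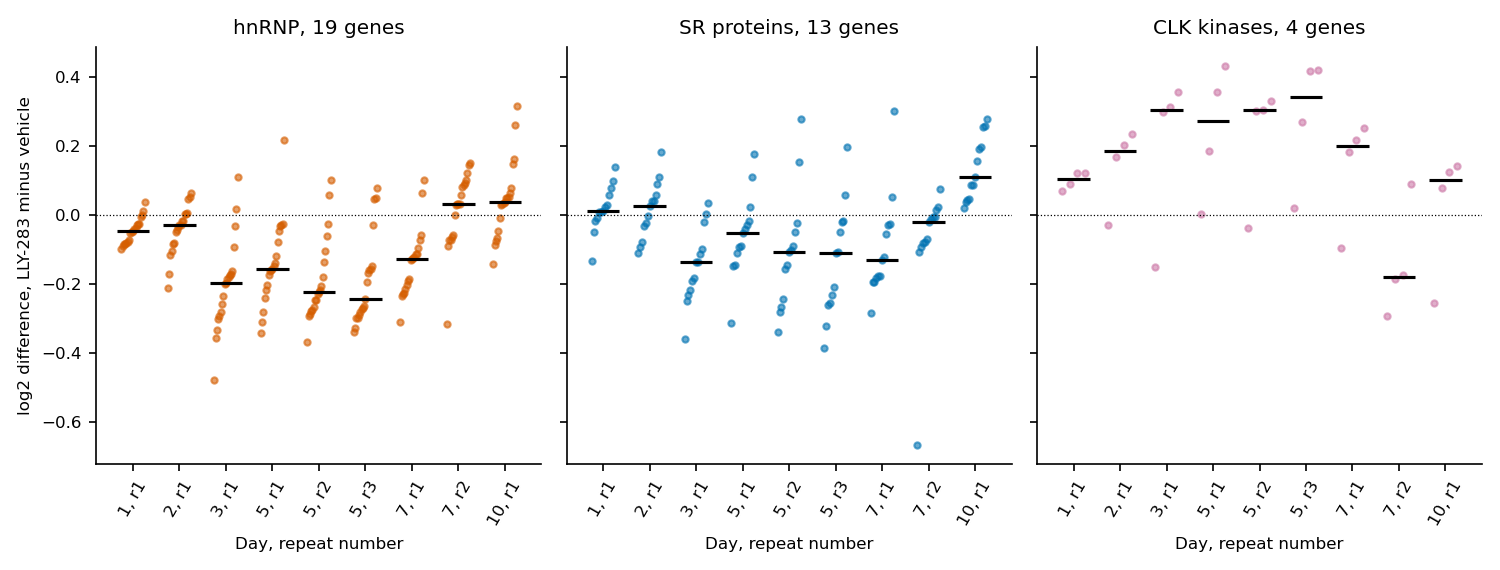
Log2 difference of LLY-283 minus vehicle (y axis) for each gene (points) of the hnRNPs, SR proteins and CLK kinases, by day and repeat number (x axis; 5, r2 is day 5, repeat 2), pairing libraries by repeat number for display only. Horizontal bars are medians: that of the hnRNPs lay at -0.20 on day 3 and that of the CLK kinases at 0.31, while at day 7 repeat 2 they lay at 0.03 and -0.18.

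At day 7, no regulator passed the test by label in edgeR or in DESeq2, against 0% of all genes in edgeR. At an unadjusted p under 0.05, 1 of 48 did so, against 1.4% of all genes. The repeats went opposite ways. In repeat 1, CLK1 stood at 33.5 CPM in the library labelled vehicle and 38.1 CPM in the library labelled LLY-283, and in repeat 2 it stood at 36.6 and 29.8 CPM. SRSF1 stood at 649 and 574 CPM in repeat 1 and at 640.4 and 675 CPM in repeat 2. Of the 30 regulators called at day 5, 30 had the sign of their call in repeat 1 and 7 in repeat 2, against 94.8% and 19.6% of all genes called at day 5. The summed proliferation list showed the same split, at 2281 and 1878 CPM in repeat 1 and at 1907 and 2360.1 CPM in repeat 2.

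At day 10, the regulators took a smaller share of the counts than on the other days in both arms, 1.76% with vehicle and 1.80% with LLY-283. HNRNPM stood at 365 CPM with vehicle and 408 CPM with LLY-283, and SRSF1 at 474 and 481 CPM, below every library of days 0 to 7 for both genes. All 13 SR proteins were higher with LLY-283, by a median of 0.11 on the log2 scale, which is opposite to their median at days 3 and 5. CLK1, CLK2 and CLK4 were higher with LLY-283, with log2 differences of 0.08, 0.14 and 0.13, CLK3 was lower at -0.25, and RBM39 and RBM5 were higher by 0.22 and 0.25. Of the 30 regulators called at day 5, 16 had the sign of their call at day 10, against 72.7% of all genes called at day 5.

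**Figure D3:**
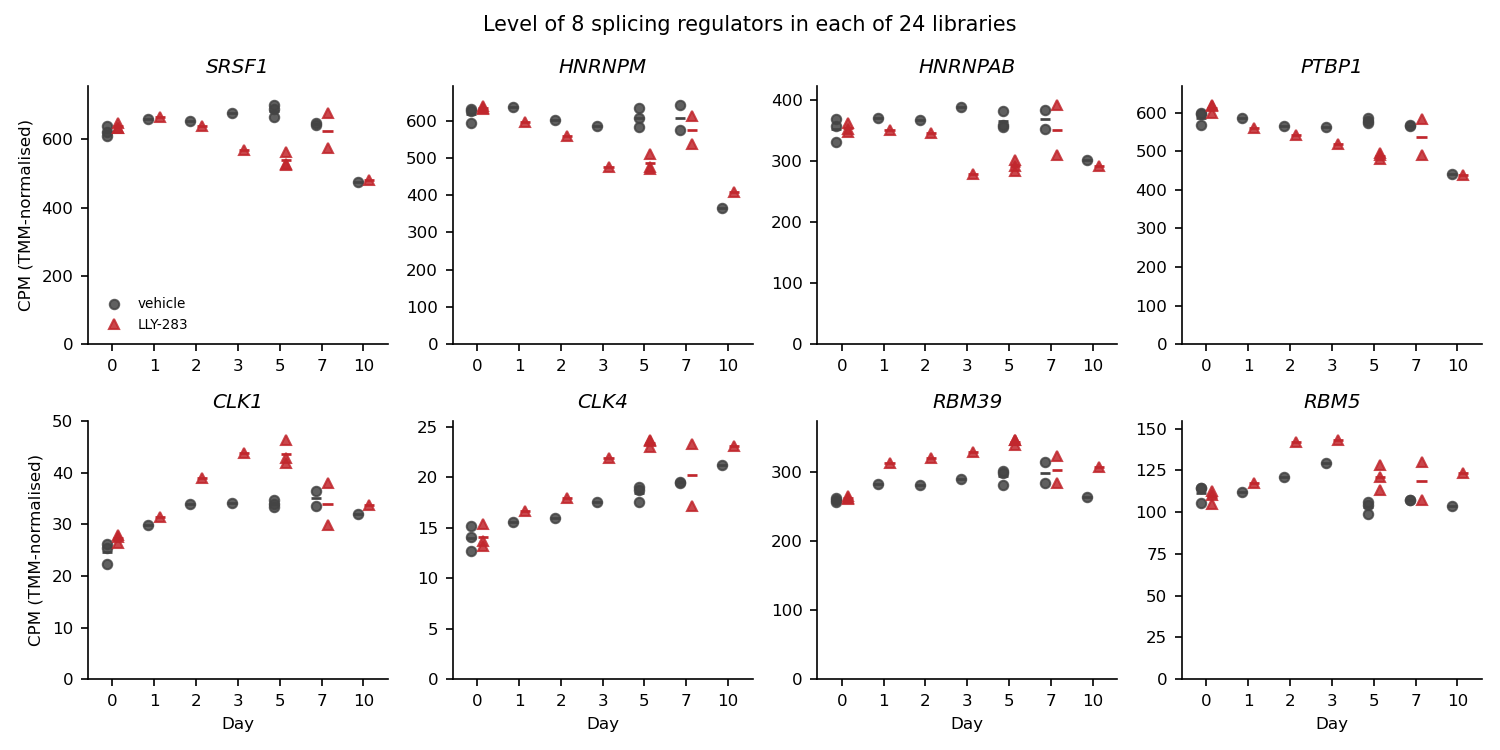
Level in CPM (y axis, from 0) of 8 regulators in each of the 24 libraries, by day (x axis), with grey circles for vehicle, red triangles for LLY-283 and short bars for the mean of an arm. SRSF1, HNRNPM, HNRNPAB and PTBP1 show LLY-283 below vehicle at days 3 and 5, CLK1, CLK4, RBM39 and RBM5 show it above, and the arms spread into each other at day 7.

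Between day 0 and day 5 in vehicle, 28 of 48 regulators changed, against 38.9% of all genes tested. Of these, 24 rose, against 22.2% of all genes, and 4 fell, against 16.7%. SRSF8 fell most, from 41.4, 43.9 and 42.7 CPM to 31.6, 28.3 and 29.99 CPM, a log2 fold change of -0.52 ± 0.06 (SE, n = 3 per group, edgeR adjusted p = 1.4e-08). The other 3 that fell were SRSF6, HNRNPDL and SRSF5, by 0.39, 0.37 and 0.33 on the log2 scale. SRPK2 rose from 75.05, 76.8 and 79.8 CPM to 109.6, 109 and 109.5 CPM, a log2 fold change of 0.49 ± 0.04 (SE, n = 3 per group, edgeR adjusted p = 4.9e-11). HNRNPC rose by 0.46, CLK1 by 0.45 and QKI by 0.42 on the log2 scale. All of these genes had day 5 libraries clear of their day 0 libraries. Normalised by library size alone, the split was 16 higher and 8 lower.

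With LLY-283 over the same interval, 32 of 48 regulators changed, 15 higher and 17 lower, against 22.9% and 19.5% of all genes, or 42.4% called in all. In the fit of 22 libraries, 21 were called, and the share of all genes called in that fit is not given here. CLK4 rose from 13.2, 15.4 and 13.7 CPM to 23.7, 23.6 and 23.0 CPM, a log2 fold change of 0.75 ± 0.07 (SE, n = 3 per group, edgeR adjusted p = 3.2e-09). CLK1 rose by 0.70 and CLK3 by 0.48 on the log2 scale. HNRNPDL fell from 714, 675 and 679 CPM to 496, 473 and 474 CPM, a log2 fold change of -0.50 ± 0.03 (SE, n = 3 per group, edgeR adjusted p = 1.5e-12), and SRSF6 fell by 0.43. Every day 5 library of these genes was clear of its day 0 libraries. SRSF6, SRSF5, SRSF8 and HNRNPDL fell in both arms, and 11 regulators rose in both. SRSF1, HNRNPF and HNRNPK rose in vehicle and fell with LLY-283.

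**Figure D4:**
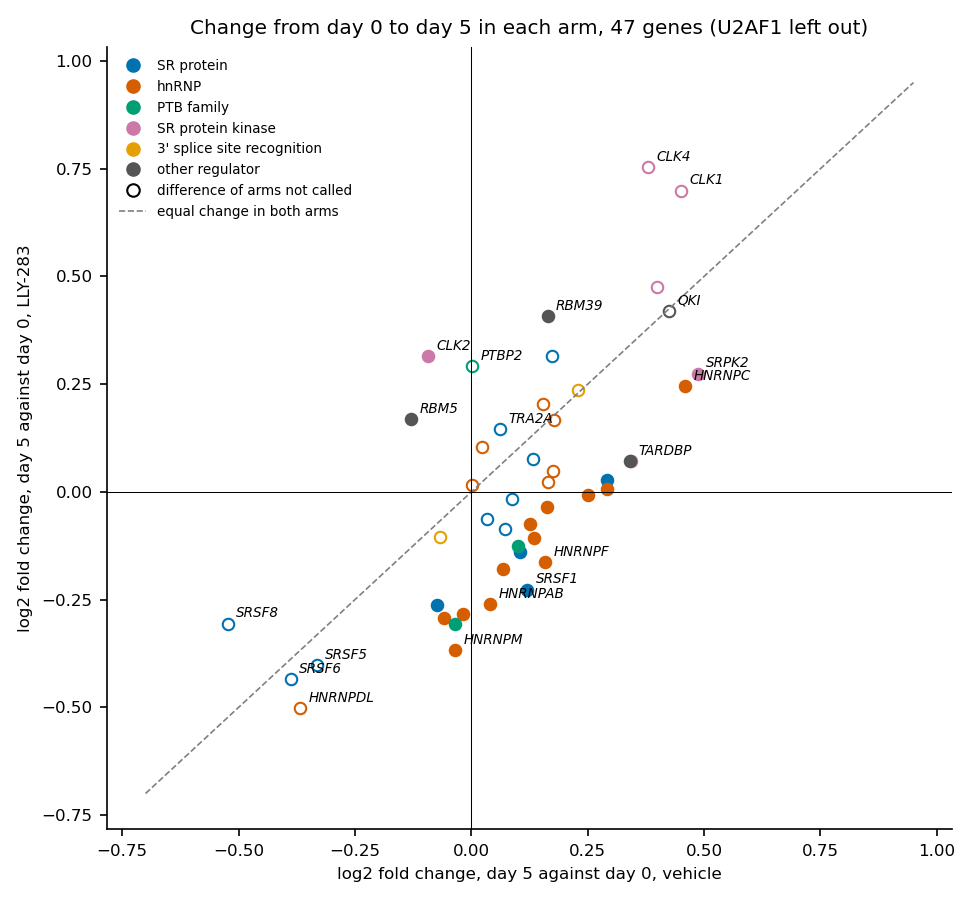
Log2 fold change from day 0 to day 5 in vehicle (x axis) and with LLY-283 (y axis) for 47 regulators, coloured by role, with U2AF1 left out because most of its reads lie on a near-identical copy. Filled points are genes whose change differed between the arms: 21 lie below the dashed line of equal change, and CLK2, RBM5 and RBM39 lie above it.

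The change of the treatment effect from day 0 to day 5 was tested as an interaction over the 12 libraries of those days, the same that entered the comparisons at day 0, at day 5 and over time. It passed for 24 of 48 regulators, against 14.9% of all genes, with 21 lower and 3 higher, against 8.15% and 6.78%. At an unadjusted p under 0.05 it passed for 33 of 48, against 34.8% of all genes. SRSF1 had the strongest decrease, at -0.34 ± 0.05 on the log2 scale (SE, n = 3 per group, edgeR adjusted p = 4.9e-06), followed by HNRNPM at -0.33 and HNRNPF at -0.31. CLK2 had the strongest increase, at 0.42 ± 0.09 (SE, n = 3 per group, edgeR adjusted p = 0.0024), ahead of RBM5 at 0.30 and RBM39 at 0.25. The call of CLK2 was lost with library size alone and without vehicle repeat 3 of day 5. CLK4 and CLK1, at 0.38 and 0.26, did not pass (edgeR adjusted p = 0.011 and 0.031). No regulator passed this test when all 22 libraries of days 0 to 7, with the divided day 7 repeats, shared a single fit. The share of all genes that passed in that fit is not given here.

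Levels between genes were compared per kilobase of the union of a gene's exons, over the 6 day 0 libraries. HNRNPA1 stood highest at 306 ± 10.7 CPM per kilobase (SD, n = 6), followed by HNRNPAB at 167 ± 6.36 and HNRNPK at 166 ± 4.97 (SD, n = 6 each). HNRNPA1 was apart from both, whereas HNRNPAB and HNRNPK did not differ beyond their spread. PTBP1 stood at 79.7 ± 2.51 CPM per kilobase (SD, n = 6), CLK1 at 5.08 ± 0.395, CLK4 at 1.77 ± 0.134 and PTBP2 lowest at 0.921 ± 0.0485 (SD, n = 6 each). HNRNPA1 was highest and PTBP2 lowest also per mean length of coding transcripts, whereas HNRNPAB then moved from rank 2 to rank 17.

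Among 68 other splicing factors, of which 64 could be tested at day 5, 6 were higher and 17 lower with LLY-283, against 12% and 14.1% of all genes. The median log2 fold change of these 64 was -0.03. The largest decreases among the 17 called genes were those of TAF15, an RNA-binding protein, from 134 ± 7.91 to 88.7 ± 1.81 CPM (SD, n = 3), of the helicase DHX9 from 857 ± 31.4 to 666 ± 24.99 CPM (SD, n = 3) and of the hnRNP-like SYNCRIP from 318 ± 5.70 to 260.4 ± 12.004 CPM (SD, n = 3). The largest increases among the 6 called genes were those of NOVA2, a neuronal splicing regulator, from 11.1 ± 0.997 to 16.9 ± 0.552 CPM (SD, n = 3), of MBNL2 from 7.48 ± 0.619 to 9.73 ± 0.645 CPM (SD, n = 3) and of LUC7L from 111 ± 3.69 to 138 ± 6.81 CPM (SD, n = 3). The log2 fold changes were -0.57, -0.34 and -0.27 for the decreases and 0.63, 0.41 and 0.34 for the increases. NOVA2 rose in the libraries in which the neuron marker list, through GAD1 and SYT1, was higher. ESRP2 and ESRP1, at 0.75 and 0.56, did not pass the test (edgeR adjusted p = 0.25 and 0.018).

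In the annotation, 40 of the 48 regulators (83.3%) had a transcript marked for nonsense-mediated decay, against 39.1% of 19831 protein-coding genes, and 39 (81.2%) had one with a retained intron, against 48.6%. The regulators had a median of 14 annotated transcripts and protein-coding genes a median of 6. The counts used here sum the transcripts of a gene, so they do not show whether the share of such isoforms differed between the arms.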

How the data were processed

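Total RNA of HSJD-DIPG-007 cells was selected for poly(A), made into directional libraries and sequenced as paired 41 bp reads. The authors trimmed the reads, pseudoaligned them to the human transcriptome (hg38) with kallisto and deposited estimated counts per gene, in whole numbers and not scaled to library size. Gene names and positions came from GENCODE 44.

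From these counts, edgeR 4.0.16 in R 4.3.3 was used with TMM normalization, its filter on low counts by group, robust quasi-likelihood tests, and adjustment by Benjamini-Hochberg over all genes tested, with calls at an adjusted p under 0.01. The standard error is the log2 fold change divided by the square root of F. Each comparison used the libraries of its own groups, and day 10 entered no test. The members and lists were chosen with earlier results of these data known. Genes were named by a rule: the called genes with separate groups and the largest changes at day 5, up to 14, with 13 genes always named, up to 5 called genes for each other comparison, and 3 other splicing factors in each direction. Further genes were named after their values were seen. Alternatives were DESeq2 1.42.0, other scalings, filters and thresholds, a block for the repeat number, a fit to 22 libraries and leaving out each library. The fit was also run on simulated data, whose outcome is not given here and is not used as support. Shared sequence was counted as 31-mers of annotated transcripts.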

Additional observations from a re-analysis of the deposited data

Results flagged for a closer look

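The effect of LLY-283 at day 5 differed from that at day 0 for 24 of 48 regulators, against 14.9% of all genes tested. The test was the interaction of treatment and day in edgeR (adjusted p under 0.01). Of the 24, 21 were lower and 3 higher, against 8.15% and 6.78% of all genes. No regulator passed this test in the fit of all 22 libraries of days 0 to 7, for which the share of all genes is not given here. Values are differences of log2 fold changes, day 5 less day 0. Among the hnRNPs these were HNRNPM (-0.33), HNRNPF (-0.31), HNRNPAB (-0.29), HNRNPD (-0.28), HNRNPA3 (-0.26), HNRNPA2B1 (-0.25), HNRNPU (-0.24), HNRNPK (-0.23), HNRNPA0 (-0.23), HNRNPC (-0.21), HNRNPR (-0.19) and HNRNPL (-0.19). Among the SR proteins they were SRSF1 (-0.34), SRSF9 (-0.26), SRSF3 (-0.24) and SRSF10 (-0.18). The other decreases were those of PTBP1 (-0.27), SRPK1 (-0.26), TARDBP (-0.26), PTBP3 (-0.22) and SRPK2 (-0.20). The increases were those of CLK2 (0.42), RBM5 (0.30) and RBM39 (0.25). The sample numbers of days 0 and 5 fall in different ranges, and their part in these differences was not tested. No group held more than 3 libraries, so no library was tested as standing apart within its group.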

How the results depend on the processing

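Except in the fit named next, total counts of called regulators stayed within 1.5 times of the value reported under the alternatives run, apart from a crossed block at day 7. By direction this did not hold: with library size alone, 16 regulators rose and 8 fell over time in vehicle, against 24 and 4 as reported, and at day 5 DESeq2 called 5 higher, against 8. In the fit of all 22 libraries of days 0 to 7, which adds the spread of the divided day 7 repeats, 19 regulators were called for LLY-283 against vehicle at day 5 (30 reported), 21 for day 5 against day 0 with LLY-283 (32 reported) and 0 for the change of the treatment effect (24 reported). Leaving out each library in turn gave 27 to 32 called regulators at day 5, 24 to 29 for the change over time in vehicle, 27 to 34 with LLY-283, 17 to 25 for the change of the treatment effect and 0 at days 0 and 7. The change of the treatment effect was called for 17 regulators without LLY-283 day 5 repeat 2 and for 18 without LLY-283 day 0 repeat 1. Counts under the alternatives are given without the share of all genes called in the same fit. From these counts alone, a loss particular to the regulators cannot be told from a loss across all genes.

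Of single genes at day 5, PTBP2 and SRSF8 were not called in DESeq2, and CLK4, PTBP2, RBM5, SRSF8 and HNRNPC were not called in the 22-library fit. SF3B1, never called, had a log2 fold change of -0.0039 without vehicle repeat 2 and -0.0065 without LLY-283 repeat 1, in a range that reached 0.034 without LLY-283 repeat 2, against 0.02 as reported. Summing U2AF1 with its copy gave 0.028 at day 0, where the row alone was negative, and let it pass the test at day 5, for the change over time with LLY-283 and for the change of the treatment effect. The CLK2 interaction was not called with library size alone, in the 22-library fit or without vehicle day 5 repeat 3. The cause of these changes was not tested. TMM factors of all 24 libraries, the summed rows and the crossed block were added after seeing the data.

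At day 5, deviations of same-numbered libraries from their group means correlated across genes at 0.061, 0.097 and -0.075. Those of libraries with different numbers correlated at -0.19 to 0.13. Between days 0 and 5, same-numbered libraries correlated at 0.26, 0.115 and 0.05 with LLY-283 and at -0.11, -0.04 and 0.06 with vehicle. With 3 libraries per group, these values cannot settle whether the numbers pair the libraries. With a replicate block for the repeat number, 32 regulators were called at day 5, 0 at day 0, 0 at day 7, 27 and 34 for the changes over time in vehicle and with LLY-283, and 20 for the change of the treatment effect, and HNRNPA1 was called at day 5. At day 7, same-numbered libraries had opposite deviations (correlation -0.434), and a block with the numbers crossed called 1 regulator. Repeats are technical, there is 1 cell line, and genes of few reads such as PTBP2, CLK4 and U2AF1 carry larger errors.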
